A study of Mus musculus with 4 samples.

Results

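A set of 8 genes by which the mammary gland reads and relays ovarian hormones was followed across 4 arrays: Esr1, Pgr, Greb1, Areg, Wnt4, Tnfsf11, Tnfrsf11a and Rspo1. They were taken as all probe sets that the platform's gene table gave to these symbols, which found 9 probe sets for 7 of the 8 genes, among 12394 genes with a single name on the array. Areg was not analysed here, because that table named no probe set for it. The 8 genes were chosen from the intensities of these same 4 arrays, so their values are a description and carry no test.

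The samples were mammary glands of female nulliparous FVB mice, of an age not given in the sources used here, in 4 groups. The groups were MMTV-PPARd mice on chow with GW501516, MMTV-PPARd mice on standard chow, wild-type (WT) littermates on chow with GW501516, and WT littermates on standard chow. MMTV-PPARd is a transgene for the nuclear receptor PPARδ driven by the mouse mammary tumour virus promoter, which is active in mammary epithelium and itself responds to steroid hormones. GW501516 is a synthetic PPARδ agonist that was fed for 1 week, at 0.005% of the chow by the protocol and at 0.001% by a treatment tag, a conflict that was not settled here. Each group was 1 pool of RNA from 5 mice on 1 array, so no difference below has a replicate check and no p-value is given.

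Estrogen acts on the gland through ESR1 and progesterone through PGR, both in a subset of luminal epithelial cells. These cells do not mainly divide in response; they release paracrine ligands, among them amphiregulin, WNT4 and RANKL (the product of Tnfsf11), which act on neighbouring cells that carry EGFR, WNT receptors and RANK (the product of Tnfrsf11a). R-spondin 1, the product of Rspo1, strengthens WNT signalling, and Greb1 is a classical estrogen-induced gene. T lymphocytes and stromal cells of lymph nodes also make RANKL.

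Promoter windows of Tnfsf11, Rspo1 and Greb1 are shown because these genes spanned the widest range over the arrays. They come from RefSeq (GRCm38.p6), which held windows of 300 bases for all 8 genes, from 250 bases before to 50 after a transcription start, 10 windows in all with 2 each for Esr1 and Greb1. The Tnfsf11 window is chr14:78307994-78308293 on the minus strand and the Rspo1 window chr4:124986180-124986479 on the plus strand. The Greb1 windows are chr12:16800837-16801136 and chr12:16757190-16757489, both on the minus strand. Capitals mark matches, on either strand, to the motifs described after the sequences.
Tnfsf11: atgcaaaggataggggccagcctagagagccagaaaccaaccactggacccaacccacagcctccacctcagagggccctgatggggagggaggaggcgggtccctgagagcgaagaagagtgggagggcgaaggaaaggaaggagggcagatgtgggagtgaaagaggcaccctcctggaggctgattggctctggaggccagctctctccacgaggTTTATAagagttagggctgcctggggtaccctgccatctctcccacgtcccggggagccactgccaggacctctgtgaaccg
Rspo1: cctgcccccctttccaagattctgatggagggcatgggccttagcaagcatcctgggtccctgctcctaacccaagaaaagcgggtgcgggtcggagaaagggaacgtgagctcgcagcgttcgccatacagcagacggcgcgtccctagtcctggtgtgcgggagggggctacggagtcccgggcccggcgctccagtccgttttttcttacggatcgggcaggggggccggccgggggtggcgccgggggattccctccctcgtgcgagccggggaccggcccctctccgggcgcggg
Greb1 first start: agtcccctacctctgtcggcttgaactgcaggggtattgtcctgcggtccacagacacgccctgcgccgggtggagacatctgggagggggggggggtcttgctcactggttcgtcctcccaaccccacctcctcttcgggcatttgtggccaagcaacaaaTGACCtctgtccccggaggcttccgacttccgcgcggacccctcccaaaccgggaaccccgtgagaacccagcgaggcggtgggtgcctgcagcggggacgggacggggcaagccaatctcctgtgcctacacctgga
Greb1 second start: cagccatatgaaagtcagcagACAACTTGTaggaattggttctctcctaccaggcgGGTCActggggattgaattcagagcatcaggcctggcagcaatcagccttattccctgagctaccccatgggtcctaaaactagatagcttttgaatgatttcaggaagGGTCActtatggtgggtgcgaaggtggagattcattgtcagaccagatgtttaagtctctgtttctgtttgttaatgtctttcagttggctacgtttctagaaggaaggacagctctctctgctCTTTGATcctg

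Both strands of the 10 windows were searched for 7 motifs. The full estrogen response element, an inverted pair of GGTCA with NNN between, matched in none of them and in 0.07% of all 32851 windows. A single GGTCA, which lies inside the full element and inside the PPAR element, matched in windows of Areg, Esr1 and Greb1 and in 40.5% of all windows. In Greb1 it began 88 bases before the first start (position -88) and at positions -194 and -85 of the second. The progesterone and glucocorticoid receptor core ACANNNTGT, found in 6.85% of all windows, matched in the second Greb1 window alone, at position -229. The TCF/LEF site ATCAAAG, found in 3.73%, also matched there, at position 39 after the start. The TATA box TATAAA, found in 13.6%, matched in the windows of Areg, Pgr and Tnfsf11, at position -32 in Tnfsf11. The PPAR response element, a direct pair of AGGTCA with N between, found in 0.0396%, and the NF-kB site, found in 1.63%, matched in no window of the 8 genes. The Rspo1 window held no match to any of the 7 motifs. A match is a run of letters and not evidence of binding.

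Intensities are given in the authors' linear units. Intensities under 20.5, the 25th percentile over all probe sets and arrays, were taken as not separable from background and raised to that floor before folds were computed. A fold with 1 side below the floor is a lower bound. Of the 7 genes, Greb1, Wnt4, Tnfsf11 and Rspo1 reached 139, the median of all values, on at least 1 array, and Esr1, Pgr and Tnfrsf11a did not. Technical scatter was gauged by the disagreement between probe sets of the same gene, over 3897 genes that reached 139 on at least 1 array. Its SD was between 0.41 and 0.50 on the log2 scale for the comparisons of 2 arrays. Differences below that SD are no larger than this scatter. It does not measure scatter between arrays or pools. Of the 7 genes only Tnfsf11 was among those used, as Esr1, Pgr, Greb1, Wnt4 and Rspo1 had 1 probe set each and Tnfrsf11a did not reach 139.

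Ppard, the transgene's product, read 4224 in MMTV-PPARd mice on GW501516 and 1943 in MMTV-PPARd mice on chow, against 1.5 and 2.1 in WT mice on those diets. Luminal epithelial markers were present on all arrays, with 0 of 8 below the floor and a summed intensity of 21119 to 29902. Single markers were less even. On chow 4 of 8 were at least 2-fold higher in transgenic than in WT mice (median log2 difference 0.58). These were Ehf (1411 against 240.1), Cdh1 (1829 against 454.1), Cldn3 (1866 against 673.7) and Epcam (5565 against 2588). Another 3 were lower by less than 2-fold. On GW501516 0 of 8 passed 2-fold between genotypes (median 0.38). The part of luminal epithelium in the differences below was not tested. The arrays differed in other tissues too. Skeletal muscle markers summed to 55836 in MMTV-PPARd mice on GW501516, 15576 in MMTV-PPARd mice on chow, 60230 in WT mice on GW501516 and 7180 in WT mice on chow. The 6 measured T cell markers summed to 147.1, 1381, 159.8 and 4274 on the arrays in that order, with 3, 0, 2 and 0 of them below the floor. The 6 measured B cell markers summed to 113.6, 1235, 181.6 and 2448, with 4, 1, 3 and 1 below the floor. On the MMTV-PPARd chow array the spiked control BioB averaged 28.6 over its probe sets, against 333.8 to 384.9 on the others. Another spiked control, BioC, was lower there by less, at 746.3 against 1024.6 to 1245.7 and 500.4 against 745.9 to 934.1 by probe set. Gapdh read 3573 there against 8730 to 12274. In pooled tissue, fewer cells of a type and less RNA per cell cannot be told apart.

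Of the receptors of the ovarian hormones, Esr1 was not measurable and Pgr was lowest in MMTV-PPARd mice on chow. The Esr1 probe set (1421244_at) read 11.6 in MMTV-PPARd mice on GW501516, 12.9 in MMTV-PPARd mice on chow, 14.5 in WT mice on GW501516 and 12 in WT mice on chow. All 4 values lay below the floor, so no fold is given. Esr2, the second estrogen receptor gene, named after its values were seen, was below the floor on all arrays too, between 0.6 and 1.2.

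Pgr (1421444_at), which encodes the progesterone receptor, read 51.3 in MMTV-PPARd mice on GW501516, 26.7 in MMTV-PPARd mice on chow, 77.9 in WT mice on GW501516 and 84.4 in WT mice on chow. Pgr was lower in transgenic than in WT mice, by 3.16-fold on chow (log2 -1.66) and 1.52-fold on GW501516 (log2 -0.60). On GW501516 the level was 1.92-fold higher in transgenic mice (log2 0.94), while in WT mice it differed by 1.08-fold (log2 -0.12). A floor of 71.1, the 40th percentile, brought the chow difference to -0.25, so it rests on intensities near background.

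Greb1 (1419593_at), whose product is a coactivator of the estrogen receptor, changed order between the diets. It read 71.5 in MMTV-PPARd mice on GW501516, 15.9 in MMTV-PPARd mice on chow, 29.0 in WT mice on GW501516 and 149.1 in WT mice on chow. WT mice on chow were highest and MMTV-PPARd mice on chow lowest, below the floor. Greb1 was at least 7.27-fold lower in transgenic than in WT mice on chow (log2 -2.86) and 2.47-fold higher in transgenic than in WT mice on GW501516 (log2 1.30). With GW501516 it was at least 3.49-fold higher in transgenic mice (log2 1.80) and 5.14-fold lower in WT mice (log2 -2.36). The agonist's effect in transgenic mice thus exceeded that in WT mice by at least 4.16 on the log2 scale. With the floor at 71.1, the difference between genotypes on GW501516 and that between diets in transgenic mice both became 0.01, and the 2 remaining differences became -1.07.

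**Figure D1:**
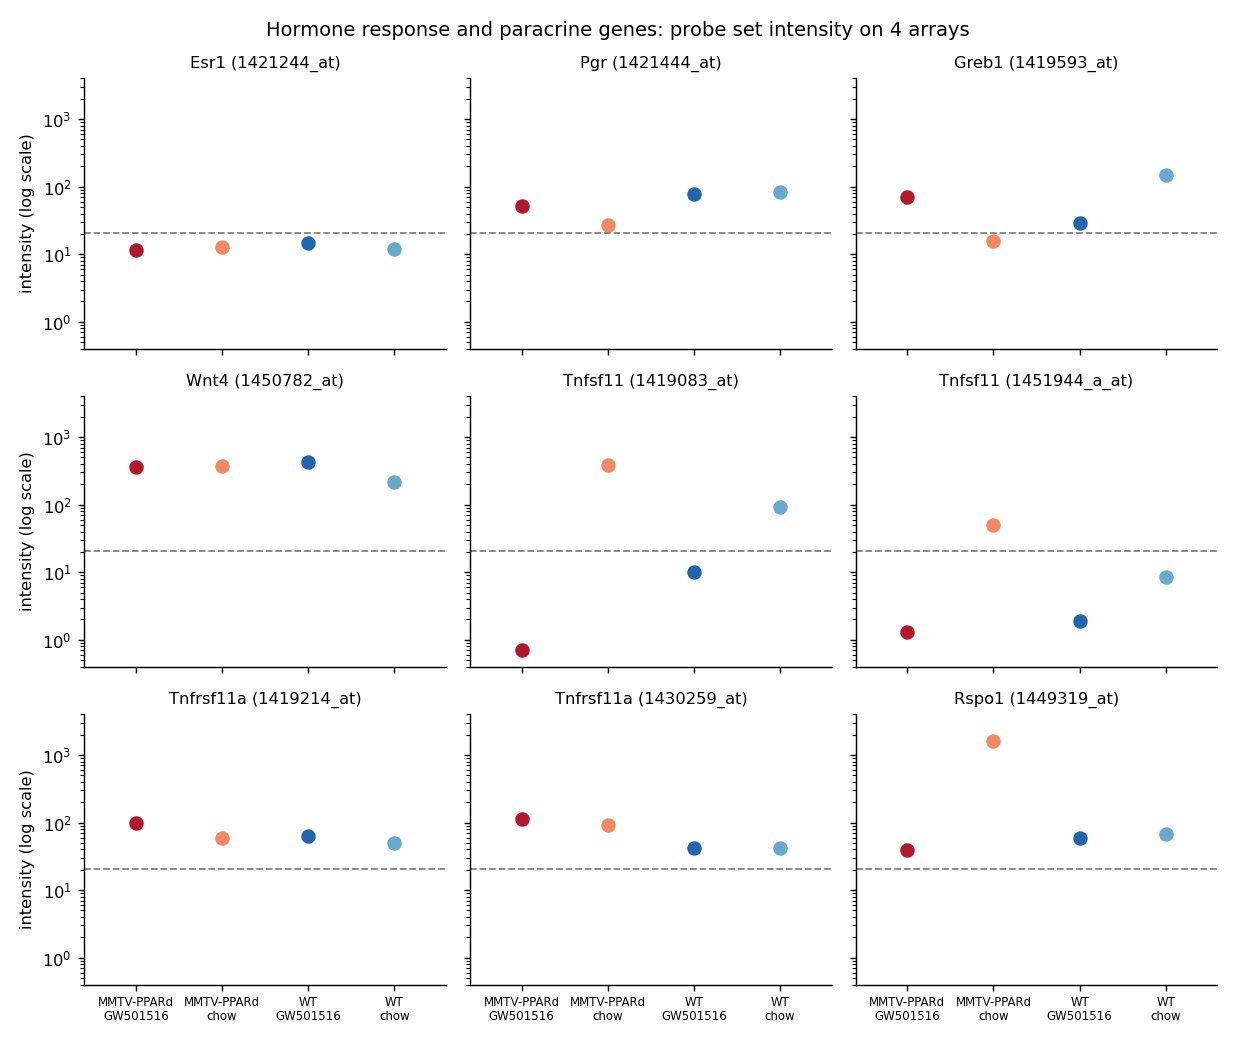
Intensity of the 9 probe sets of the 7 genes (vertical axis, log scale, the authors' linear units) on the 4 arrays, 1 point per array of 5 pooled mice, with the floor of 20.5 as a dashed line. Rspo1 stands at 1604.5 in MMTV-PPARd mice on chow against 39.7 to 67.8 on the other arrays, and all Esr1 values lie below the floor.

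Among the paracrine ligands, Tnfsf11 was high in MMTV-PPARd mice on chow and below the floor on both GW501516 arrays. Its probe set 1419083_at read 0.7 in MMTV-PPARd mice on GW501516, 382.4 in MMTV-PPARd mice on chow, 10.1 in WT mice on GW501516 and 92.3 in WT mice on chow. The order was therefore transgenic chow, WT chow, and the GW501516 pools, whose order below the floor is not defined. RANKL is the factor through which progesterone drives division of cells that lack its receptor.

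The transgenic level on chow was 4.14-fold that of WT mice (log2 2.05). On GW501516 transgenic mice were at least 18.7-fold below their level on chow (log2 -4.22), and WT mice at least 4.50-fold below theirs (log2 -2.17). No genotype difference can be given on GW501516, where both values lay below the floor, and for the same reason the agonist's effects in the genotypes cannot be set against each other. With the floor at 71.1 the WT difference between diets became -0.38 on the log2 scale.

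The second Tnfsf11 probe set (1451944_a_at) read 1.3 in MMTV-PPARd mice on GW501516, 50.1 in MMTV-PPARd mice on chow, 1.9 in WT mice on GW501516 and 8.5 in WT mice on chow. It exceeded the floor on the transgenic chow array alone, where it was at least 2.44-fold above WT mice on chow and above transgenic mice on GW501516. Both probe sets thus had their highest value on the same array, the one on which BioB and Gapdh were low. The lowest values of Pgr and Greb1 and the highest of Rspo1 were on that array too, and the part of its departure in these values was not tested.

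T cell and B cell markers were likewise low on both GW501516 arrays. Between the chow arrays their sums went the other way from Tnfsf11: the T cell sum was 1381 in transgenic mice against 4274 in WT mice, with 6 of 6 measured T cell markers at least 2-fold lower, and the B cell sum was 1235 against 2448. The 5 measured markers of lymph node stroma and vessels summed to 4520 in MMTV-PPARd mice on GW501516, 9561 in MMTV-PPARd mice on chow, 813.6 in WT mice on GW501516 and 12090 in WT mice on chow. Most of that sum was Glycam1, a mucin of lymph node vessels and of milk, at 4207, 8128, 2.2 and 9535 on the arrays in that order, and without it the sums were 313.2, 1432, 811.4 and 2554. Both versions were lowest on the GW501516 arrays, whose order differed between them. Madcam1, an adhesion molecule of such vessels, went the same way as Tnfsf11 between the chow arrays, at 202.6 in transgenic mice against 87.9 in WT mice (2.30-fold), and read 46.1 in transgenic and 42.8 in WT mice on GW501516. Madcam1 was alone in this among the 5 markers. Cxcl13, a chemokine of lymphoid follicles, went the other way, at 1032 against 2189 on chow (2.12-fold lower). The remaining markers were lower in transgenic mice on chow by less than 2-fold: Cr2 at 99.9 against 163.4, Tnfsf13b at 97.5 against 113.9, and Glycam1. The part of lymphocytes and lymph node tissue in the Tnfsf11 values was not tested.

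Rspo1 (1449319_at) read 39.7 in MMTV-PPARd mice on GW501516, 1604.5 in MMTV-PPARd mice on chow, 58.4 in WT mice on GW501516 and 67.8 in WT mice on chow. One array was far above the others, which lay within 1.71-fold of each other. Rspo1 was 23.7-fold higher in transgenic than in WT mice on chow (log2 4.56) and 1.47-fold lower on GW501516 (log2 -0.56).

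With GW501516, Rspo1 was 40.4-fold lower in transgenic mice (log2 -5.34) and 1.16-fold lower in WT mice (log2 -0.22), a difference between genotypes of -5.12. The size of the Rspo1 difference rests on the 1 array on which BioB and Gapdh were low, and no second probe set was there to compare.

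Wnt4 (1450782_at), the WNT ligand that progesterone induces in the gland, read 355.7 in MMTV-PPARd mice on GW501516, 370.5 in MMTV-PPARd mice on chow, 431.4 in WT mice on GW501516 and 213.5 in WT mice on chow. WT mice on chow were lowest, and the other values lay close together. Wnt4 was 1.74-fold higher in transgenic than in WT mice on chow (log2 0.80) and 1.21-fold lower on GW501516 (log2 -0.28). With GW501516 it was 2.02-fold higher in WT mice (log2 1.01, or 0.997 with arrays shifted to one median) and 1.04-fold lower in transgenic mice (log2 -0.059, or 0.01 with that shift).

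Tnfrsf11a, which encodes the receptor RANK, was read by 2 probe sets that both stood higher in transgenic than in WT mice on each diet. The brighter, 1430259_at, read 111.9 in MMTV-PPARd mice on GW501516, 92.2 in MMTV-PPARd mice on chow and 41.5 in both WT pools. The genotype difference was 2.70-fold on GW501516 (log2 1.43) and 2.22-fold on chow (log2 1.15). With the floor at 71.1 the log2 differences became 0.65 and 0.37, and neither reached 2-fold.

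The other Tnfrsf11a probe set, 1419214_at, read 99.3 in MMTV-PPARd mice on GW501516, 58.5 in MMTV-PPARd mice on chow, 62.5 in WT mice on GW501516 and 50.6 in WT mice on chow. Here the genotype difference was 1.59-fold on GW501516 and 1.16-fold on chow, and the transgenic chow value lay below the WT GW501516 value. With the mean over both probe sets the log2 difference was 1.05 on GW501516 and 0.68 on chow, and the chow value no longer reached 2-fold. RANK is found on luminal progenitors and basal cells of the gland. The 7 basal markers had a summed intensity of 12226 in MMTV-PPARd mice on GW501516 and 13150 in MMTV-PPARd mice on chow, against 9737 and 8645 in WT mice on the same diets. Of the 6 basal markers past the filter, 3 were above and 3 below 0 between genotypes on GW501516 (median 0.04), and 5 above and 1 below on chow (median 0.79). Krt14, a basal keratin, was far higher in transgenic mice on both diets, at 2818 against 334.9 on GW501516 and 3652 against 323.2 on chow, while Krt5, another, was lower on GW501516 at 229.1 against 326.3. Their part in the Tnfrsf11a difference was not tested.

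**Figure D2:**
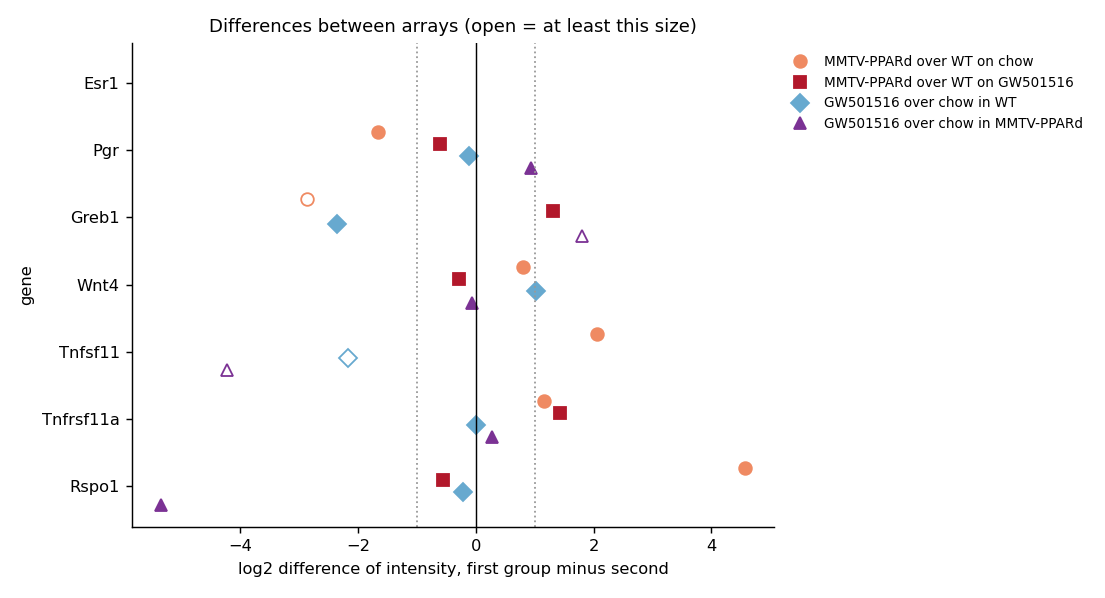
Log2 difference of intensity (horizontal axis) of the 7 genes in the 4 comparisons between arrays, for the brightest probe set of each gene, with dotted lines at 2-fold. Filled symbols are measured on both arrays, open symbols are lower bounds with 1 array below the floor, and no symbol is drawn where both are below it. Rspo1 has the widest span, from -5.34 to 4.56, and Greb1 differs in sign between the diets and between the genotypes.

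Counted over the 7 genes without an intensity filter, 3 of them (Tnfsf11, Tnfrsf11a, Rspo1) passed 2-fold upward in transgenic mice on chow, where 4.53% of 12394 genes did, and 2 downward (Pgr, Greb1), where 3.52% did. On GW501516 transgenic mice had 2 higher (Greb1, Tnfrsf11a), with 2.37% of all genes, and 0 lower, with 1.2%. With GW501516 in WT mice 1 was higher (Wnt4), with 2.95% of all genes, and 2 lower (Greb1, Tnfsf11), with 3.18%. In transgenic mice 1 was higher (Greb1), with 3.47%, and 2 lower (Tnfsf11, Rspo1), with 3.86%. The agonist's effect was at least 2-fold greater in transgenic than in WT mice for 2 genes (Pgr, Greb1), with 4.3% of all genes, and at least 2-fold smaller for 3 (Wnt4, Tnfsf11, Rspo1), with 5.06%, of which Tnfsf11 is not determined and Wnt4 (-1.07) ended at -0.99 with arrays shifted to one median. These counts restate how the genes were chosen. The median log2 difference of the 7 genes was 0.80 between genotypes on chow and -0.12 between diets in WT mice, and 0 in the other comparisons, as it was over all genes in each. Esr1, below the floor throughout, enters these medians as 0. The comparisons share arrays in pairs, so their counts are not independent.

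**Figure D3:**
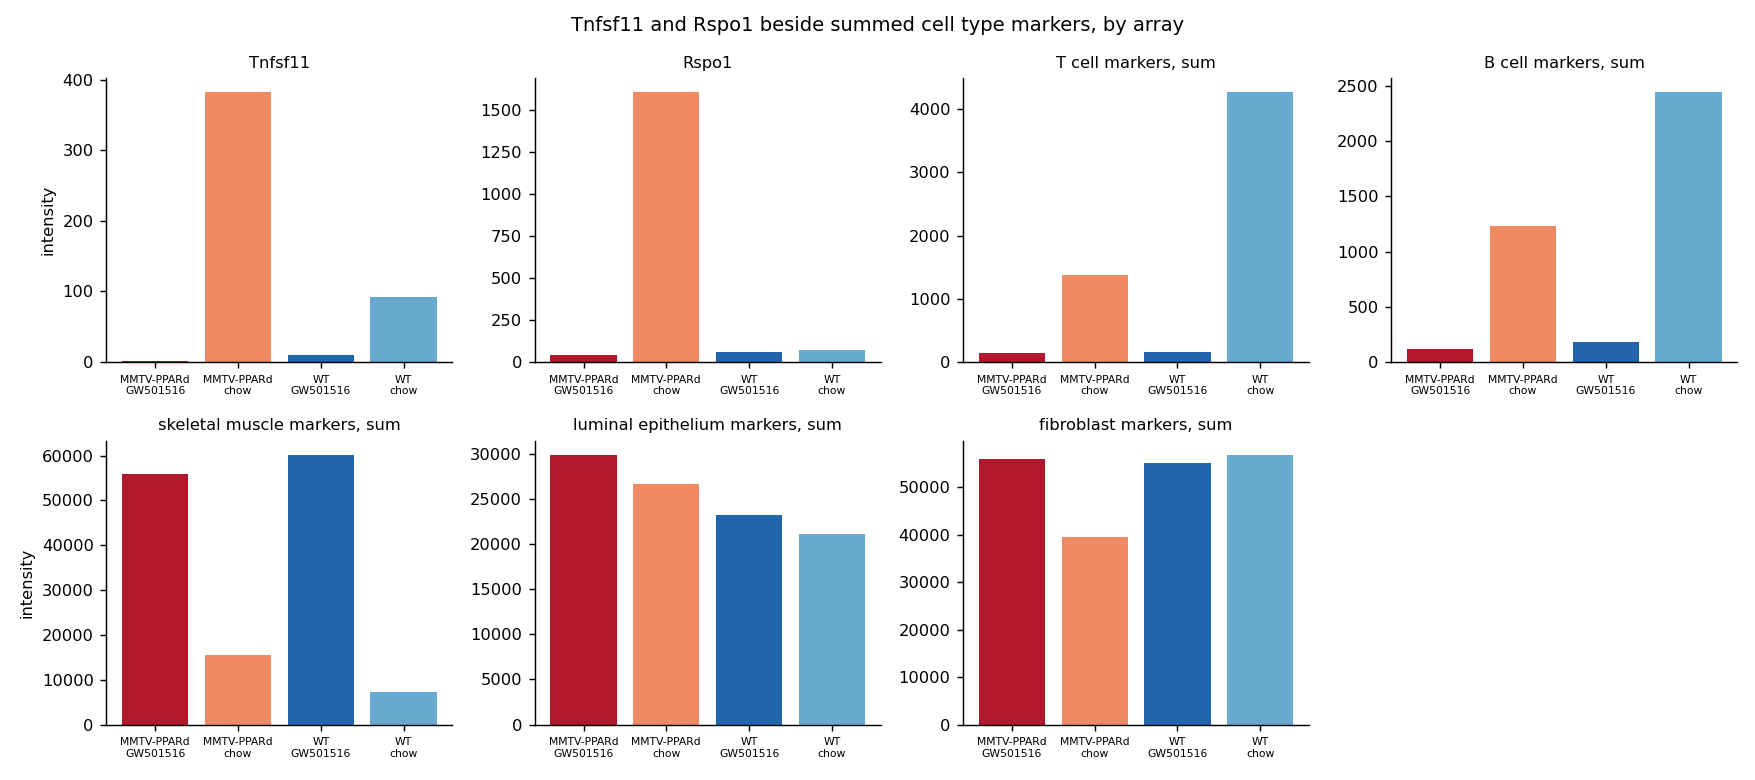
Intensity of Tnfsf11 and Rspo1 and summed intensities of cell type markers (vertical axes, linear, from 0, each panel on its own scale) on the 4 arrays, 1 bar per array. Tnfsf11 is high on the MMTV-PPARd chow array at 382.4, where the T cell sum is 1381 against 4274 in WT mice on chow.

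Genes of the surrounding pathways were counted among those past the intensity filter, 7836 in all. Of these, 2.82% passed 2-fold upward and 1.19% downward in transgenic mice on GW501516, and 5.46% upward and 3.71% downward on chow. For the agonist the shares were 3.18% higher and 3.25% lower in WT mice and 3.99% higher and 4.07% lower in transgenic mice. For the difference of the agonist's effects they were 4.43% and 5.25%. The lists share some genes: Ccnd1 is in the estrogen, progesterone and RANK lists. Milk protein genes, summed over 7, read 97829 in MMTV-PPARd mice on GW501516, 44432 in MMTV-PPARd mice on chow, 44916 in WT mice on GW501516 and 16661 in WT mice on chow. They did not all move with the sum. On chow 5 of 7 were at least 2-fold higher in transgenic than in WT mice and 1, Lalba, was lower (159.0 against 624.5). Csn3 was lower by less than 2-fold (5264 against 8043). The part of milk protein genes in the list values was not tested.

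In the RANK list, transgenic mice had 2 of 8 genes at least 2-fold higher on GW501516 and 3 of 8 on chow, with 0 lower on either diet. Of the 8, Rela was lower in transgenic mice on chow (780.0 against 1038). Among the genes of the list that did not pass the filter, Map3k14 was lower in transgenic mice on both diets. It read 18.6, below the floor, against 27.4 on GW501516, and 55.8 against 66.5 on chow. Nfkb2, also not past the filter, was higher on both, at 66.1 against 36.4 and 125.5 against 89.1. On both diets several differences of the 8 genes were below the scatter between probe sets. The smallest were 0.005 on GW501516 and 0.18 on chow. The list's median was 0.39 on both diets, where all genes had a median of 0.00 and 0.02. Ccnd1 (cyclin D1), which drives cells into the cycle, read 2914 in MMTV-PPARd mice on GW501516 and 3164 in MMTV-PPARd mice on chow, against 1423 and 1320 in WT mice on those diets. Id2, a transcriptional regulator that acts below RANK in the mouse gland, read 1917 and 3551 in transgenic mice, against 893.0 and 1236 in WT mice. For both genes each transgenic array lay above each WT array. Traf2, an adaptor of TNF receptors named after its values were seen, was 2.01-fold higher on chow (540.5 against 269.1), which fell short of 2-fold under both other scalings.

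Relb, a subunit of the NF-kB factor, was lower with GW501516 in both genotypes, at 131.5 against 290.1 in transgenic mice (2.21-fold) and 86.2 against 242.0 in WT mice (2.81-fold). With GW501516 the list had 2 of 8 genes at least 2-fold lower in transgenic mice (median -0.40) and 1 of 8 in WT mice (median -0.20), and 0 higher in either. Tnfrsf11b, which encodes osteoprotegerin, the decoy receptor of RANKL, read 8.9, 40, 14.5 and 18.3 in MMTV-PPARd mice on GW501516, MMTV-PPARd mice on chow, WT mice on GW501516 and WT mice on chow. It exceeded the floor on the transgenic chow array alone, by 1.95-fold.

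In the progesterone list, transgenic mice had 3 of 8 genes at least 2-fold higher on each diet and 0 lower, and the genes were Ccnd1, Id2 and Elf5 on both. The median was 0.09 on GW501516 and 0.74 on chow. Elf5, a transcription factor that directs alveolar cells, read 6524 in MMTV-PPARd mice on GW501516 and 4920 in MMTV-PPARd mice on chow, against 1295 and 882.3 in WT mice. Cxcr4, a chemokine receptor that lymphocytes also carry, was 4.32-fold lower with GW501516 in transgenic mice (122.9 against 531.2) and 2.23-fold lower in WT mice (146.5 against 327.3). In those comparisons the list had 0 of 8 higher and 1 lower, with medians of -0.32 and -0.29, while T cell markers were at least 2-fold lower for 6 of 6 in each.

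In the estrogen list of 12 genes, 2 passed 2-fold upward and 0 downward in transgenic mice on GW501516. On chow 2 passed upward and 2 downward (3 downward with arrays shifted to one median). The medians were 0.13 and -0.18. Myc, a growth regulator, read 521.9 in MMTV-PPARd mice on GW501516, 1540 in MMTV-PPARd mice on chow, 431.9 in WT mice on GW501516 and 481.9 in WT mice on chow. Stc2, a secreted glycoprotein, read 1006, 376.2, 1158 and 1099 on the arrays in that order. The MMTV-PPARd chow array was thus the highest for Myc and the lowest for Stc2. Ltf (lactoferrin), an estrogen-responsive gene in mouse uterus and a milk protein, was 12.2-fold higher with GW501516 in transgenic mice (5185 against 426.6) and 2.18-fold higher in WT mice (1482 against 679.6). With GW501516 the list had 2 higher and 1 lower in transgenic mice (median 0.37) and 1 higher and 0 lower in WT mice (median 0.09).

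Markers of hormone-sensing luminal cells showed 0 of 6 genes past 2-fold between genotypes on either diet, with medians of -0.04 on GW501516 and 0.16 on chow. Foxa1, a factor that opens chromatin for the estrogen receptor and also named after its values were seen, read 1295 in MMTV-PPARd mice on GW501516, 1151 in MMTV-PPARd mice on chow, 1405 in WT mice on GW501516 and 886.8 in WT mice on chow. Cited1, a coactivator found with the estrogen receptor in the gland, was 2.34-fold higher with GW501516 in WT mice (1593 against 679.5) and 1.18-fold lower in transgenic mice (843.1 against 996.8). Like Wnt4, it was highest in WT mice on GW501516 and lowest in WT mice on chow. With GW501516 the list had 1 of 6 higher in WT mice (median 0.38) and 0 in transgenic mice (median 0.31), and 0 lower in either.

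In the R-spondin and WNT list, 1 of 5 genes was at least 2-fold higher in transgenic mice on chow, and 0 were past 2-fold in the other 3 comparisons. Medians were -0.18 on GW501516 and 0.09 on chow between genotypes, and 0.01 in transgenic mice (-0.11 with quantile normalization) and 0.05 in WT mice between diets. Axin2, a direct target of canonical WNT signalling, read 88.6 in MMTV-PPARd mice on GW501516, 158.5 in MMTV-PPARd mice on chow, 132.2 in WT mice on GW501516 and 163.9 in WT mice on chow. On the transgenic chow array, where Rspo1 read 1604.5, Axin2 was within 1.03-fold of WT mice on chow.

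Rnf43, a membrane ubiquitin ligase that R-spondins counteract and that WNT signalling induces, read 103.5 in MMTV-PPARd mice on GW501516 and 147.9 in MMTV-PPARd mice on chow, against 53.4 and 50.7 in WT mice. It was 1.94-fold higher on GW501516 and 2.92-fold higher on chow. Lgr5, a receptor of R-spondins, read 39.9, 51.2, 37.4 and 29.9 on the arrays in the same order, with no difference of 2-fold. Rspo2, named after its values were seen, did not pass the filter and read 17.8, 1.9, 19.5 and 71.5 on the arrays in that order, above the floor in WT mice on chow alone.

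Among amphiregulin's receptor and processing genes and the stromal growth factors, 0 of 8 passed 2-fold between genotypes on GW501516 (median 0.03), and on chow 0 were higher and 1 lower (median 0.44). Egfr, the receptor for amphiregulin, read 439.9 in MMTV-PPARd mice on GW501516, 318.0 in MMTV-PPARd mice on chow, 458.8 in WT mice on GW501516 and 546.3 in WT mice on chow, with no difference of 2-fold. Fgf10, a stromal growth factor for ductal epithelium, was 2.45-fold lower in transgenic than in WT mice on chow (94.5 against 231.1). On the same arrays fibroblast markers summed to 39488 against 56853 and adipocyte markers to 34833 against 46644. Their part in the Fgf10 difference was not tested. Egf, an EGFR ligand that is also abundant in salivary glands, was 5.29-fold higher with GW501516 in transgenic mice (169.2 against 32) and at least 8.01-fold higher in WT mice (164.2 against 17.7). The salivary markers Bpifa2, Smr3a and Cst10 read 3719, 441.7 and 557.0 in WT mice on GW501516 and were below the floor on the other arrays, the transgenic GW501516 array included. Of the 3 remaining markers in that list, Dcpp1 passed the floor on the same array alone at 24.1. Prol1 went the other way, at 6.1 in WT mice on GW501516 against 147.2 in WT mice on chow, the single array on which it passed the floor. Amy1 read 2785 to 4338 on all arrays. With GW501516 the list had 1 of 8 higher and 0 lower in each genotype, with medians of 0.24 in transgenic and 0.17 in WT mice. In the list of steroid receptors and enzymes 0 of 4 genes passed 2-fold in any of the 4 comparisons, with medians of -0.05 to 0.13 (the median on chow between genotypes, 0.01, was below 0 under both other scalings).

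**Figure D4:**
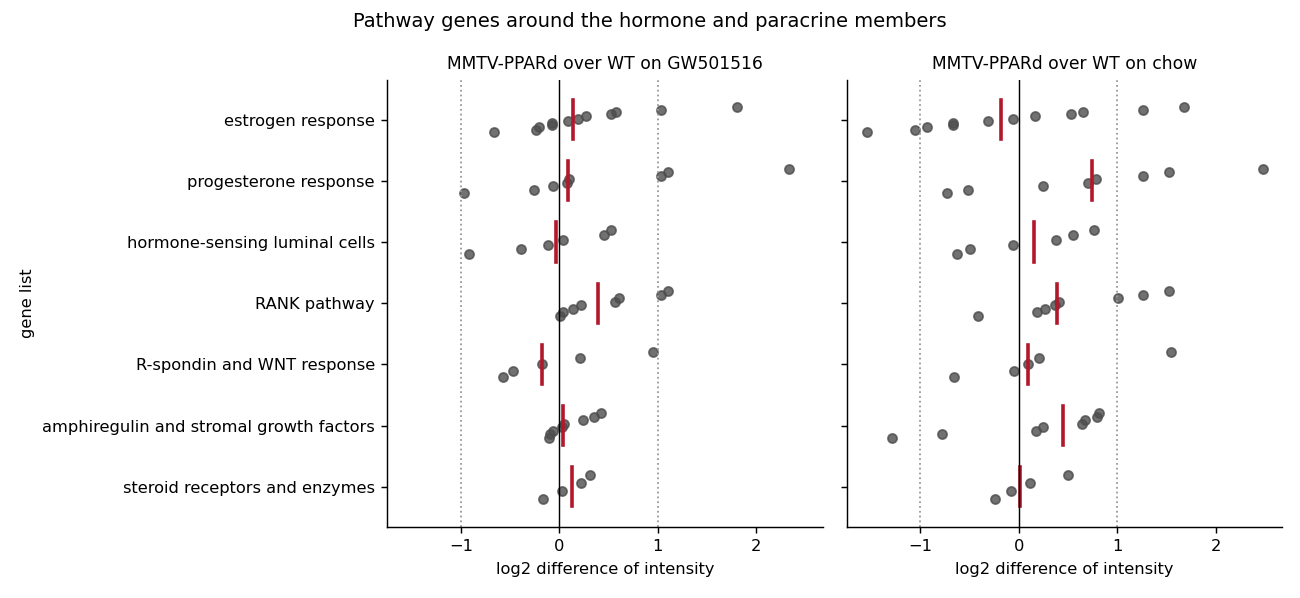
Log2 difference of intensity between MMTV-PPARd and WT mice (horizontal axis), on GW501516 (left) and on chow (right), for the genes of 7 lists that passed the intensity filter. Each point is a gene, red bars are list medians and dotted lines mark 2-fold. The RANK list has a median of 0.39 in both panels, and the hormone-sensing luminal list has no gene past 2-fold.

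For each gene that passed the filter and spanned at least 4-fold, the 3 genes nearest in profile were found by the Euclidean distance between log2 values centred on each gene's own mean, over 4 arrays. Nearest to Tnfsf11 were Ubd (distance 0.92), Igkv8-30 (1.01) and Igkv9-120 (1.24). Both Igkv genes are immunoglobulin kappa variable genes. Like Tnfsf11, and unlike the B cell marker sum, they were higher in transgenic than in WT mice on chow. Igkv8-30 read 2195 against 1072 and Igkv9-120 144.2 against 83.8, though choice by profile favours such a match. Ubd, a ubiquitin-like modifier, read 57.1 in MMTV-PPARd mice on GW501516, 1864 in MMTV-PPARd mice on chow, 43.8 in WT mice on GW501516 and 217.2 in WT mice on chow.

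Nearest to Rspo1 were Rprm (0.91), Ubd (1.52) and Myl10 (1.59). Rprm read 10.3 in MMTV-PPARd mice on GW501516, 344.7 in MMTV-PPARd mice on chow, 9.5 in WT mice on GW501516 and 11.8 in WT mice on chow, so it was above the floor on 1 array. Tnfsf11 was the gene of rank 8 for Rspo1, at 1.87.

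Nearest to Greb1 were Nnat (0.77), Mmd2 (0.77) and Prtn3 (0.77). Each was highest in WT mice on chow and lowest in MMTV-PPARd mice on chow, with Mmd2 at 74.2 in MMTV-PPARd mice on chow against 760.8 in WT mice on chow. Wnt4 spanned 2.02-fold and was not set against other genes. With 4 arrays many genes share a profile, and nearness is a description only.

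**Figure D5:**
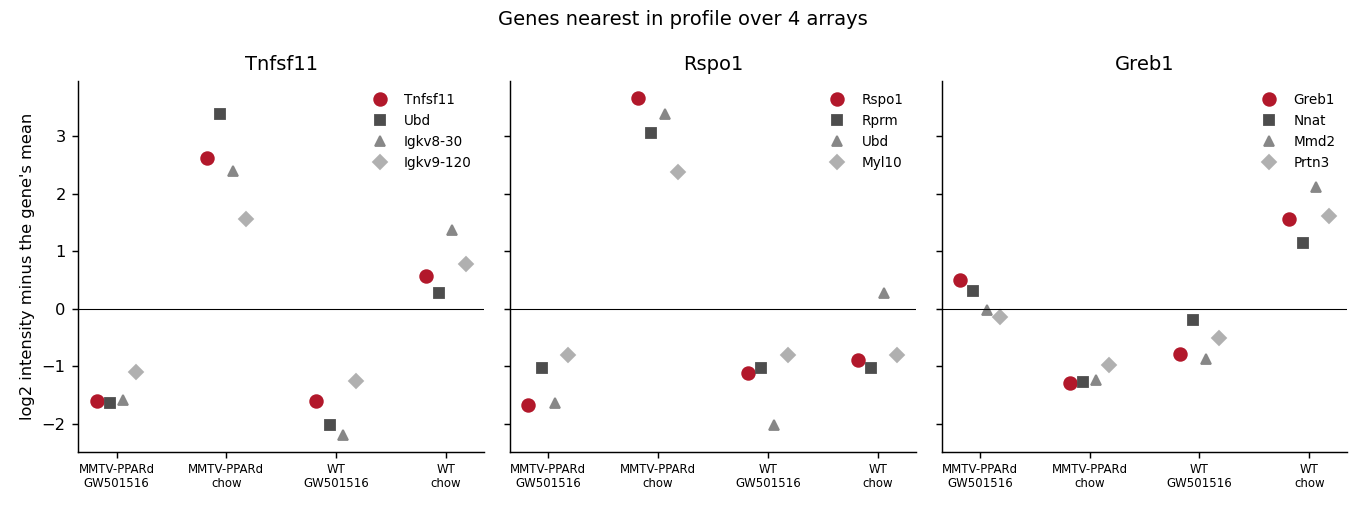
Log2 intensity, after the floor of 20.5, minus each gene's mean (vertical axis) on the 4 arrays for Tnfsf11, Rspo1 and Greb1 (red) and the 3 genes nearest to each (grey). Tnfsf11 and Rspo1 peak on the MMTV-PPARd chow array and Greb1 in WT mice on chow.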

How the data were processed

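RNA from mammary glands of 5 mice per group was pooled, labelled with biotin and hybridised to 1 Affymetrix array per group, per the labels' protocols. The deposited values are linear probe set intensities. The software, summarisation and detection calls are not given in the sources used here. On each array the mean without the lowest and highest 2% was 499.95 to 499.96, a sign that the authors scaled arrays to one trimmed mean. With 1 array per group, the number of arrays limits the precision and no test was made.

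Of 22690 probe sets, 20393 carried 1 gene symbol, 691 several and 1606 were unlisted. Symbols were updated by gene ID through RefSeq. Where several probe sets read one gene, the brightest on average stood for it, giving 12394 genes. Values were floored at the 25th percentile, log2 differences taken, and 7836 genes with an array at or above the 50th percentile counted at 2-fold. Python 3.11.15 with pandas 2.3.3 was used, and the steps were tested on simulated data. Named genes were the 8 members, up to 3 genes of each list with the largest difference of at least 2-fold among those past the filter, Tnfrsf11b, Axin2, Lgr5, Prlr (not analysed here) and Egfr, and the 3 nearest genes; Traf2, Rspo2, Esr2, Foxa1 and cell type markers were named after their values were seen. Members and lists were chosen with earlier results of these data known. Alternatives changed the scaling, floor, filter and probe set.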

Additional observations from a re-analysis of the deposited data

Results flagged for a closer look

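In some of the genes the 2 arrays of a contrast moved one way and those of the matching contrast the other, with at least 1 side past 2-fold. Each side is 1 array against 1 array, and the difference was not tested. For Greb1 the log2 effect of GW501516 was 1.80 in MMTV-PPARd mice and -2.36 in WT mice, and the log2 effect of the transgene was 1.30 on GW501516 and -2.86 on chow. For Wnt4 the effect of GW501516 was -0.059 in MMTV-PPARd mice and 1.01 in WT mice, where the first is near 0 and was 0.01 with arrays shifted to one median. For Rspo1 the effect of the transgene was -0.56 on GW501516 and 4.56 on chow.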

How the results depend on the processing

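No paired analysis was possible because each group was 1 array and the labels carry no replicate numbers. No called difference of the 7 genes changed sign under the scalings, floors, filters and probe set choices tried. Of the 4 genes past the filter, 2 were at least 2-fold higher and 1 lower between genotypes on chow, and 1 and 0 on GW501516. Between diets the counts were 1 and 2 in WT mice and 1 and 2 in MMTV-PPARd mice. In the difference of agonist effects they were 1 and 3. Greb1 passed the filter through WT mice on chow alone, and Tnfsf11 and Rspo1 through MMTV-PPARd mice on chow alone. The filter thus favours the contrasts counted here, and the counts are no check on them. A filter at the 75th percentile (554.8) left Rspo1 alone, which passed it through MMTV-PPARd mice on chow. The counts were then 1 and 0, 0 and 0, 0 and 0, 0 and 1, and 0 and 1. No filter gave 2 lower between genotypes on chow, 2 higher on GW501516, and 2 higher in the difference of effects, since more genes were counted. With a floor at the 40th percentile (71.1), 0 were higher between genotypes on GW501516, 1 lower between diets in WT mice and 0 higher in MMTV-PPARd mice. With arrays shifted to one median 0 were higher between diets in WT mice, as Wnt4 stood at 0.997, and 2 were lower in the difference of effects, as Wnt4 stood at -0.99. With no floor beyond 1 unit, 1 was lower between genotypes on GW501516, which was Tnfsf11 at -3.34.

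Over all genes, 428 were higher and 291 lower between genotypes on chow, 221 and 93 on GW501516, 249 and 255 between diets in WT mice, 313 and 319 in MMTV-PPARd mice, and 347 and 411 in the difference of effects. The stricter filter, with 4375 genes, gave 218 and 132, 131 and 38, 134 and 91, 171 and 123, and 155 and 195. With no filter the counts beyond 1.5 times were 149 lower between genotypes on GW501516, 394 lower between diets in WT mice, and 533 higher and 627 lower in the difference of effects. The higher share of that difference was 45.8%, and 55.8% with arrays shifted to one median. Of the single-gene differences under these settings, 217 moved by less than the SD between probe sets of one gene and 23 by more. Most of the 23 were at the higher floor. Many of the 217 could not move. Changing the filter leaves single-gene differences as they are, and so did leaving out shared-transcript probe sets. The mean over probe sets could change Tnfsf11 and Tnfrsf11a alone. Intensities near the floor limit Pgr, Greb1, Tnfsf11 and Tnfrsf11a, and Rspo1 on all arrays but that of MMTV-PPARd mice on chow.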
